A study of Homo sapiens with 4 samples.

Results

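The matrix metalloproteinase, ADAM, ADAMTS and TIMP genes were examined in 4 poly(A) RNA libraries from NCI-H1048 cells, a human line established from small cell lung cancer. Members were all gene symbols in the deposited tables made of MMP, ADAM, ADAMTS or ADAMTSL and a number, together with TIMP1 to TIMP4, and rows of the same symbol were summed. The rule gave 72 genes among 35979 symbols, and 41 of the 72 had a mean normalized count of at least 20 over the 4 libraries, the minimum that 14940 genes passed. The 4 libraries came from cells given a non-targeting guide RNA (gRNA; genotype labelled WT), a gRNA against POU2F3 (labelled POU2F3 knockout), or 1 of 2 different gRNAs against COLCA2 (labelled COLCA2 knockout). POU2F3 is the transcription factor of tuft cells, and COLCA2 encodes a co-activator that works with it. The labels do not say which nuclease was used, how long after it RNA was taken, or whether cells were a pool or a clone.

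These proteins remodel the surroundings of cells. MMPs are zinc-dependent enzymes that cut collagens and other matrix proteins, either secreted or, for the membrane-type enzymes, held at the cell surface. ADAMs are transmembrane proteins, some of which shed growth factors, cytokines and adhesion molecules from the membrane, whereas ADAMTS enzymes are secreted and cut proteoglycans, procollagens and other matrix targets. TIMPs bind the active site of these enzymes and inhibit them, TIMP3 having the widest reach over ADAM and ADAMTS enzymes, and ADAMTS-like proteins resemble ADAMTS without a protease domain.

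The feature that most members share is the zinc-binding site of their catalytic domain, with 3 histidines that hold the metal and a glutamate that takes part in the cut. In the longest coding sequence of each gene in GENCODE release 29 (GRCh38), read for the pattern His-Glu-x-x-His-x-x-(Gly or Asn)-x-x-His, 52 of the 70 members with a coding sequence held the site. All 22 MMPs and all 12 ADAMs of the catalytic class had it, and none of the 8 ADAMs of the non-catalytic class, the 5 ADAMTS-like genes or the 4 TIMPs. These classes are named for having or lacking a catalytic site or are not proteases, so the split describes them and is not a finding. Among ADAMTS genes, ADAMTS8 was the exception in lacking the pattern. The pattern admits only glycine or asparagine at its variable place, so a miss does not show that the zinc site is absent. The residue at the variable place was asparagine in 4 members (ADAMTS1, ADAMTS4, ADAMTS9 and ADAMTS15) and glycine in the other 48. The 33 bases that code for the site are printed below for 8 of the genes that were higher in every targeted library and for MMP14, the member with the highest level per length, to show what the named enzymes have in common. Capitals mark the codons of the 5 fixed residues, 5′ to 3′ on the coding strand.
ADAMTS1: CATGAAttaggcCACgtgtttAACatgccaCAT
ADAMTS9: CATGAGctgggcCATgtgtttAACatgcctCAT
ADAMTS15: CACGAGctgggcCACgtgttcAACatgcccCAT
ADAMTS5: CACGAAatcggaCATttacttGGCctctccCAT
ADAMTS2: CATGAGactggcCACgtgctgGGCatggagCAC
ADAM8: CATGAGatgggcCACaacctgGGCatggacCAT
MMP1: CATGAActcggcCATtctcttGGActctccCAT
MMP13: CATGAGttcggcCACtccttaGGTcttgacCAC
MMP14: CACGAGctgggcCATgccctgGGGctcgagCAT
The site lies in 1 exon in ADAM8 (exon 11, chr10:133271880-133271912, minus strand), MMP1 (exon 5, chr11:102795549-102795581, minus), MMP13 (exon 5, chr11:102952115-102952147, minus) and MMP14 (exon 5, chr14:22843283-22843315, plus). In the ADAMTS genes an intron splits it: exons 3 and 4 of ADAMTS1 (chr21:26841143-26841867, minus), 8 and 9 of ADAMTS9 (chr3:64651148-64654369, minus), 2 and 3 of ADAMTS15 (chr11:130461612-130462109, plus), 2 and 3 of ADAMTS5 (chr21:26943525-26954748, minus), and 7 and 8 of ADAMTS2 (chr5:179154177-179154830, minus). Over the 33 bases ADAMTS9 and ADAMTS15 were identical at 29, ADAMTS1 and ADAMTS9 at 28, and MMP1 and ADAMTS5 at 27. ADAMTS9 and MMP13 were identical at 17.

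The libraries held 21587741 to 29632382 reads assigned to genes, as recovered from the normalized counts. The 10 most abundant genes took 4.21% to 4.88% of them. Normalized counts of POU2F3 were 14602 (non-targeting gRNA), 1449 (POU2F3 gRNA), and 3677 and 2351 (COLCA2 gRNA 1 and 2). Those of COLCA2 were 5585, 1393, 3119 and 3541 in the same order, so that COLCA2 RNA was less than 2-fold lower with its own guides. Among 10 tuft markers, POU2F3 itself included, 7 passed the minimum and 6 of these were at least 2-fold lower in all 3 targeted libraries. The 10 genes summed to 47007 normalized counts with the non-targeting gRNA and to 10189 to 15423 in the others. TRPM5, CHAT and PTGS1 were under the minimum. Of 5 neuroendocrine markers 2 passed it and 1 of them, INSM1, was at least 2-fold lower in all 3 targeted libraries, the 5 summing to 198 with the non-targeting gRNA and 90.6 to 94.8 in the others. Of 4 epithelial markers 3 (KRT8, KRT18 and CDH1) were at least 2-fold higher in all 3 targeted libraries. EPCAM, the remaining marker, went the other way by less than 2-fold, from 3986 in the non-targeting library to between 2463 and 3408. The 4 summed to 12082 in the non-targeting library, against 25820 to 37107 in the targeted ones, where KRT8 and KRT18 were highest. No fibroblast marker was listed at 0, and 3 of 5 (COL3A1, PDGFRB and LUM) were at least 2-fold higher in all 3 targeted libraries. LUM, at 14.3 with the non-targeting gRNA, passed the minimum only through the targeted libraries. The 5 genes summed to 1257 in the non-targeting library and 1572 to 2052 in the others, COL1A1 holding most of it. The leukocyte markers summed to 170 to 293, with CSF1R at 0 in the non-targeting library, and the endothelial ones to between 27.0 and 41.1, with KDR at 0 throughout. The part of any of these cell types in the results below was not tested. In bulk RNA, fewer cells of a type and less RNA per cell cannot be told apart.

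All ratios are differences of log2(normalized count + 1), a scale that makes changes of low genes look smaller, and a gene is called at 2-fold or more, with both guides required for COLCA2. There is no test at that threshold because the non-targeting gRNA and the POU2F3 gRNA each had 1 library, and all comparisons with the non-targeting gRNA share that 1 library. The spread between the COLCA2 guides (SD, n = 2) is the only error within a group, and it joins guide, culture and library differences. Intervals on folds with POU2F3 gRNA are 95% exact (Clopper-Pearson) intervals of the recovered reads and cover counting error only. Where an adjusted p is printed, it comes from edgeR's quasi-likelihood test on the recovered reads, adjusted over all 14940 genes. It has 1 residual degree of freedom, the COLCA2 pair, whose libraries carry different guides. The non-targeting gRNA had 1 library too, so for POU2F3 gRNA and COLCA2 gRNA alike it compares libraries and not conditions.

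In the untargeted state the members most abundant per length were a membrane-type MMP, an inhibitor and widely expressed ADAMs. As normalized count per kb of the longest annotated transcript, the non-targeting library had 1408 for MMP14, a collagenase anchored in the membrane that also activates MMP2. TIMP2, which takes part in that activation as well as in inhibition, had 1258 per kb, ADAM15 had 1185, and ADAM9 had 556. ADAM10 and ADAM17, the main sheddases of Notch and of tumour necrosis factor, had 344 and 174 per kb. Most secreted MMPs were near or at 0. MMP2 and MMP9, the gelatinases, had 7 and 2 reads in the non-targeting library, MMP7 had 1 read, and MMP1, MMP3, MMP8, MMP10 and MMP12 had none. MMP11 was the exception among secreted MMPs, with 137 per kb. Other leaders of their class were ADAM11 (153 per kb), ADAMTSL3 (92.7), ADAMTS3 (91.8), ADAMTS7 (74.6) and ADAMTS1 (38.6). The order of these levels has no replicate check, since that library had none.

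Relative to the non-targeting library, 11 members were at least 2-fold higher with POU2F3 gRNA and under either COLCA2 guide, and no member was at least 2-fold lower in all 3 libraries. They were ADAMTS1, ADAMTS5, ADAMTS9, ADAMTS15, ADAMTS2, ADAM8, ADAM9, MMP1, MMP13, TIMP1 and TIMP3. These are 11 of the 41 members past the minimum (26.8%), and 4.89% of all genes tested were higher in all 3 libraries and 1.5% lower. The minimum is a mean that includes the targeted libraries, so it favours higher calls: ADAM8, ADAMTS5, MMP1 and MMP13 were under 20 in the non-targeting library and passed only through the libraries where they were high. Of the 37 members with at least 20 in the non-targeting library too, 7 were called higher in all 3, beside 3.54% of 14511 such genes. The counts, medians and class totals over members past the minimum are therefore descriptions. With POU2F3 gRNA alone the members called higher were the same 11, beside 6.73% of all genes, and 2 members were lower, beside 3.05%. With both COLCA2 guides 12 members were higher, the 11 and MMP24, beside 5.79% of all genes, and none was lower, beside 2.02%. The median log2 ratio of the 41 members was 0.42 in the POU2F3 gRNA library and 0.19 and 0.23 in those of COLCA2 gRNA 1 and 2, and over all genes it lay between -0.0052 and -0.0017. The member median depended on the minimum. Asking for 20 in the non-targeting library as well gave 0.20 with POU2F3 gRNA and 0.14 for the mean of the COLCA2 guides. Without a minimum the values were 0.32 and 0.37. By edgeR's test 13 members were higher with POU2F3 gRNA (8.45% of all genes) and 1 lower (3.98%), and 13 were higher with COLCA2 gRNA (11.4%) and 3 lower (7.51%). Both counts of 13 include ADAM8, ADAMTS5 and MMP1, and that for COLCA2 gRNA also MMP13, so they share the limit of the minimum.

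**Figure D1:**
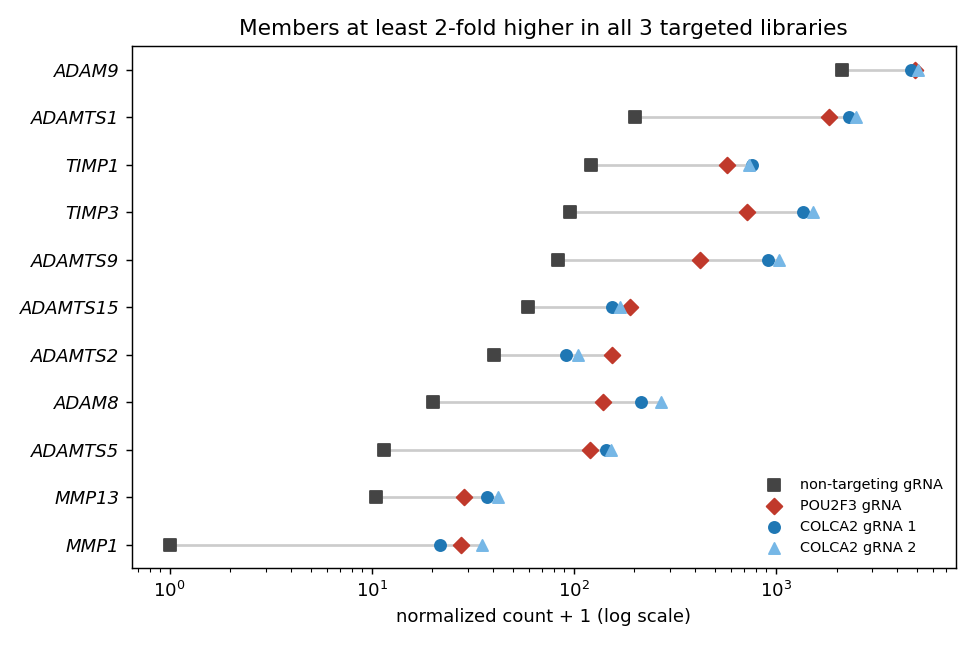
Normalized count plus 1 (log axis) of the 11 members that were at least 2-fold higher in all 3 targeted libraries, 1 point per library. The non-targeting library (square) lies left of the other points in each row, and ADAM9 has the highest values while MMP1 had no read in that library.

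The proteoglycan-cleaving ADAMTS enzymes held the largest group. In all 3 targeted libraries 4 of 5 members past the minimum were called higher, beside 4.89% of all genes. ADAMTS5, 1 of the 4, passed the minimum only through the targeted libraries. ADAMTS1 (ENSG00000154734, chromosome 21, 26835747 to 26845409, minus strand), which cuts versican and aggrecan, had a normalized count of 201 with the non-targeting gRNA, 1837 in the POU2F3 gRNA library, and 2294 and 2491 with COLCA2 gRNA 1 and 2. Its log2 ratio was 3.19 with POU2F3 gRNA (ratio interval 7.95 to 10.6) and 3.57 ± 0.084 with the COLCA2 guides (SD, n = 2). The edgeR adjusted p-values for ADAMTS1 were 6.86e-05 and 3.47e-05. All 3 targeted libraries lay far above the non-targeting one and close to each other.

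ADAMTS5 (ENSG00000154736), a principal aggrecanase of cartilage, lies next to ADAMTS1 on the same strand at 26917912 to 26966513, with 72.5 kb between them. Its normalized count was 10.5 with the non-targeting gRNA, 119 with POU2F3 gRNA, and 144 and 152 with the COLCA2 guides. The log2 ratio of ADAMTS5 was 3.39 with POU2F3 gRNA (ratio interval 6.15 to 23.2) and 3.69 ± 0.052 with the COLCA2 guides, with edgeR adjusted p-values of 0.00277 and 0.00116. Those p-values carry no weight of their own, because ADAMTS5 passed the minimum only through the targeted libraries. The neighbours thus had like ratios at levels that differed, per length, from 38.6 for ADAMTS1 to 1.16 for ADAMTS5 normalized counts per kb in the non-targeting library. Their reads together numbered 221 in that library, 2331 with POU2F3 gRNA, and 2352 and 2247 with the COLCA2 guides. ADAMTS1 alone held 210, 2189, 2213 and 2118 of these in the same order, so the sums mainly restate that gene.

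ADAMTS9 (ENSG00000163638, chromosome 3, 64515654 to 64688000, minus strand), another versican-cutting enzyme, had normalized counts of 83.1 with the non-targeting gRNA, 421 with POU2F3 gRNA, and 916 and 1035 with the COLCA2 guides. Its log2 ratio was 2.33 with POU2F3 gRNA (ratio interval 4.02 to 6.43) and 3.54 ± 0.12 with the COLCA2 guides. An antisense gene, ADAMTS9-AS1, shares 1.63% of its annotated exon bases. Here the POU2F3 gRNA library stood between the non-targeting and the COLCA2 libraries. ADAMTS15 (ENSG00000166106, chromosome 11, 130448974 to 130476641, plus strand) had 58.3, 188, 153 and 169 in the same order, with log2 ratios of 1.67 and 1.45 ± 0.10. Its divergent neighbour ADAMTS8, 19.98 kb away, was at 2 to 11 reads per library. ADAMTS4 was the member of the class past the minimum that was not called, with normalized counts of 133, 102, 144 and 105. Summed per length, the class had 77.1 normalized counts per kb in the non-targeting library, 466 in the POU2F3 gRNA library, and 623 and 675 with the COLCA2 guides. Of these, 38.6, 354, 442 and 480 per kb in the same order were those of ADAMTS1.

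Of the 3 procollagen-processing ADAMTS enzymes, which trim the ends of fibrillar procollagens, ADAMTS2 was called higher. It had normalized counts of 39.2 with the non-targeting gRNA, 154 with POU2F3 gRNA, and 90.2 and 105 with the COLCA2 guides. Its log2 ratios were 1.95 (ratio interval 2.80 to 5.68) and 1.29 ± 0.15, with edgeR adjusted p-values of 0.0163 and 0.0401. The deposited identifier of ADAMTS2 (ENSG00000283802) is not on the primary assembly of GENCODE 29, where the symbol is placed on chromosome 5 at 179110851 to 179345430. ADAMTS3 had log2 ratios of 0.95 (POU2F3 gRNA) and 0.59 ± 0.25 (COLCA2 guides), under the 2-fold threshold, with edgeR adjusted p-values of 0.0195 and 0.0525. ADAMTS14 had ratios between -0.52 and 0.10.

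Among ADAMs with a catalytic site, ADAM8 and ADAM9 were called higher in all 3 libraries, 2 of 7 past the minimum, beside 4.89% of all genes. ADAM8 passed the minimum only through the targeted libraries. ADAM8 (ENSG00000151651, chromosome 10, 133262403 to 133276868, minus strand), a sheddase known from leukocytes and tumours, had normalized counts of 19.1 with the non-targeting gRNA, 139 with POU2F3 gRNA, and 216 and 268 with the COLCA2 guides. The log2 ratio of ADAM8 was 2.80 with POU2F3 gRNA (ratio interval 4.57 to 12.3) and 3.59 ± 0.22 with the COLCA2 guides. The leukocyte marker PTPRC, with normalized counts of 8.29 to 16.2 over the 4 libraries, was lower in each targeted library than in the non-targeting one, while CD68 had 72.6 there and 139 to 209 in the targeted libraries.

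ADAM9 (ENSG00000168615, chromosome 8, 38996869 to 39105144, plus strand), a broadly expressed ADAM, started from a high level. It had normalized counts of 2134 with the non-targeting gRNA, 4904 with POU2F3 gRNA, and 4647 and 5064 with the COLCA2 guides, with log2 ratios of 1.20 (ratio interval 2.19 to 2.41) and 1.18 ± 0.088. The edgeR adjusted p-values for ADAM9 were 0.000842 and 0.000435. A second annotated ADAM9 row, off the primary assembly, held 175 of these in the non-targeting library, 0 in the POU2F3 gRNA library, and 315 and 334 with the COLCA2 guides. The primary row alone had log2 ratios of 1.32, 1.14 and 1.27. The main sheddases ADAM10 and ADAM17 were within 2-fold. ADAM10 had log2 ratios of 0.36, 0.16 and 0.43 with POU2F3 gRNA and COLCA2 gRNA 1 and 2, and ADAM17 had 0.20, 0.19 and 0.23. ADAM15 was within 2-fold too, with -0.34, 0.13 and 0.00069. ADAM19 had ratios of 0.49 to 0.67 with none at 2-fold. None of the 4 non-catalytic ADAMs past the minimum was called. ADAM23, an adhesion protein, came nearest, with log2 ratios of 0.90, 0.92 and 1.30. ADAM32, with ratios of -0.68, -0.68 and -0.73, was lower by less than 2-fold in each library on its summed rows. Its primary row alone was more than 2-fold lower in all 3 (-1.03, -1.40 and -3.21), while the row off the primary assembly had -0.22, 0.065 and 0.55. ADAM28 was lower in every targeted library, with 55 reads with the non-targeting gRNA and 32, 11 and 30 in the others (log2 ratios -0.94, -2.11 and -0.56), at 2-fold only with COLCA2 gRNA 1.

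**Figure D2:**
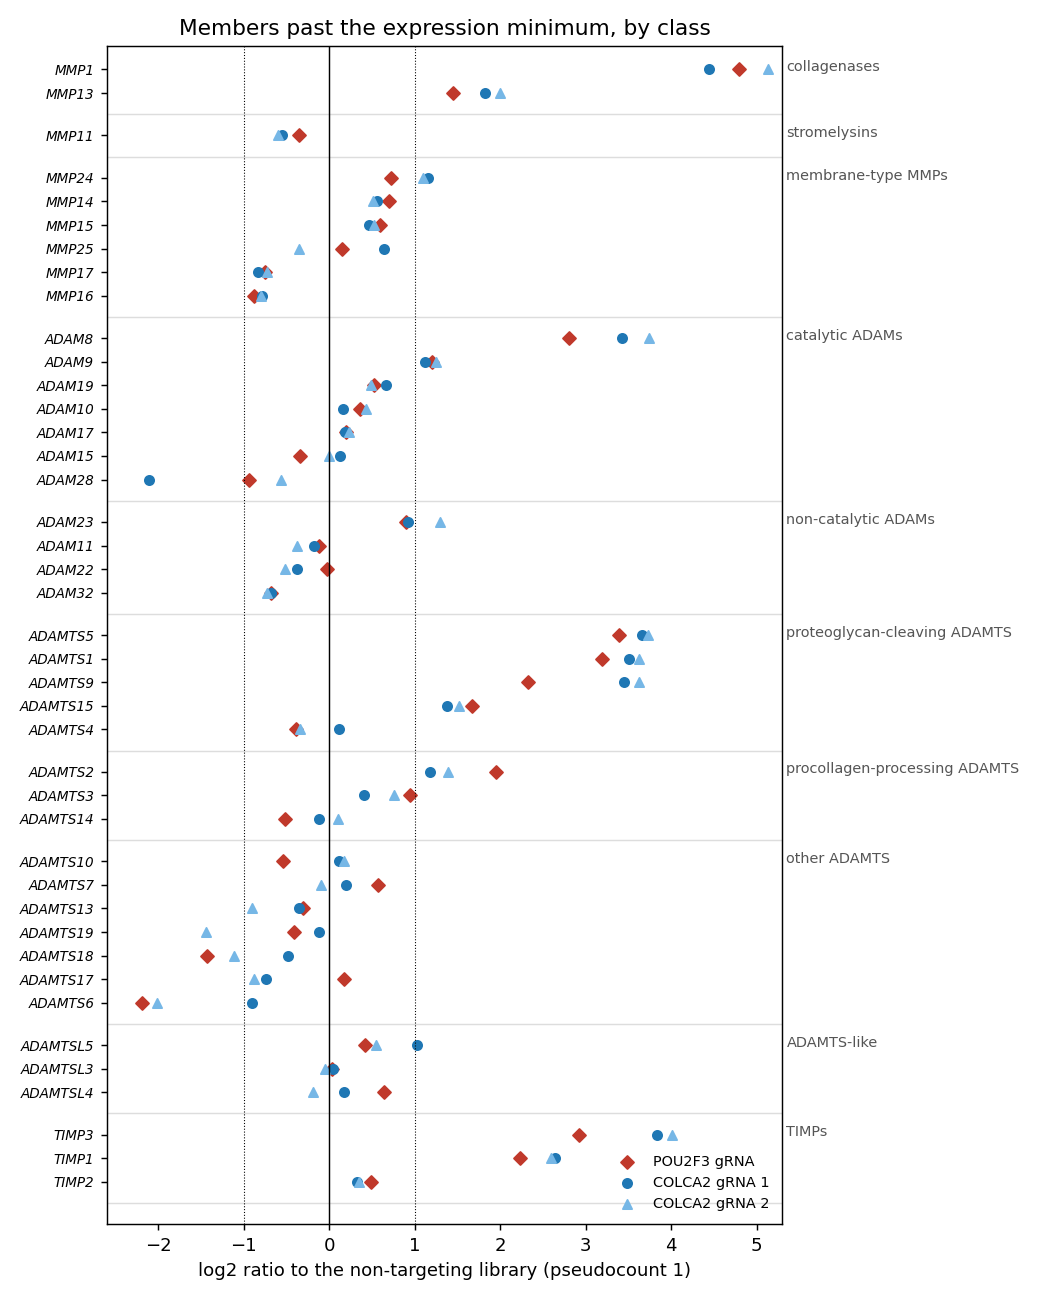
Log2 ratio to the non-targeting library (pseudocount 1) of the 41 members past the expression minimum, grouped by class, with 1 point for the POU2F3 gRNA library and 1 for each COLCA2 guide. Dotted lines mark 2-fold; the rightmost points belong to MMP1, whose position rests on the pseudocount, and most points of the membrane-type MMPs, ADAMs and ADAMTS-like genes lie between the dotted lines.

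The secreted collagenases MMP1 and MMP13 were called higher from almost no reads. MMP1 (ENSG00000196611, chromosome 11, 102789920 to 102798160, minus strand), the interstitial collagenase, had 0 reads with the non-targeting gRNA, 32 with POU2F3 gRNA, and 20 and 29 with the COLCA2 guides. Set against 3 reads in the non-targeting library, MMP1 was 9.38-fold higher with POU2F3 gRNA, and 7.24-fold and 11.9-fold higher with COLCA2 gRNA 1 and 2. The exact 95% lower limits of its ratios were 7.19, 5.36 and 9.08 in the same order. Its mean normalized count of 20.4 lay just above the minimum, which it passed only through the targeted libraries, so the edgeR adjusted p-values of 0.0152 and 0.00988 carry no weight of their own. A pseudogene on the other strand, WTAPP1, shares 7.61% of the annotated exon bases of MMP1. MMP13 (ENSG00000137745, 102942995 to 102955734, minus strand), collagenase 3, had 10 reads with the non-targeting gRNA, 33 with POU2F3 gRNA, and 35 with each COLCA2 guide. Its log2 ratios were 1.44 (ratio interval 1.40 to 6.60) and 1.91 ± 0.13, with edgeR adjusted p-values of 0.156 and 0.0442. MMP13 too passed the minimum only through the targeted libraries, so its p-values likewise carry no weight of their own. The other collagenase, MMP8, had at most 3 reads in any library.

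MMP1 and MMP13 belong to a run of 9 MMP genes in 435 kb of chromosome 11 (102520508 to 102955734), in the order MMP7, MMP20, MMP27, MMP8, MMP10, MMP1, MMP3, MMP12 and MMP13. Together the 9 genes had 11 reads in the non-targeting library, 87 in the POU2F3 gRNA library, and 67 and 91 with COLCA2 gRNA 1 and 2. Reads came from 2 of the 9 genes in the non-targeting library and from 8, 6 and 8 in the others. Most reads in the targeted libraries were those of MMP1, MMP10 and MMP13, so the sums mainly restate these genes. No other gene of the run had more than 3 reads in a library. The summed normalized count with POU2F3 gRNA was 6.95-fold higher (interval 3.70 to 14.4), and 6.61-fold (3.47 to 13.9) and 10.2-fold (5.43 to 21.1) higher with the COLCA2 guides. MMP10, stromelysin 2, was under the minimum, with 0 reads with the non-targeting gRNA, 13 with POU2F3 gRNA, and 6 and 18 with the COLCA2 guides. Against 3 reads, it was 3.81-fold higher in the POU2F3 gRNA library and 2.17-fold and 7.39-fold higher in the 2 COLCA2 libraries. The exact 95% lower limits of its ratios were 2.68, 1.28 and 5.41 in the same order. MMP27 had no read in any library. These totals rest on few reads, and MMP13 accounts for 10 of the 11 reads found with the non-targeting gRNA.

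Promoter sequence was available from RefSeq (GRCh38.p14) for 44 of the 72 members, MMP10 among them, and for 4 of the 11 called members (ADAM8, ADAMTS2, TIMP1 and TIMP3). The windows of 250 bases before to 50 after the start were read on both strands for the AP-1 motif TGANTCA, an inducible element long described in MMP promoters. It occurred in 4 of the 44 member windows (9.09%; ADAMTS12, MMP7, MMP20 and MMP10) and in 7.71% of all 35116 windows. None of the 4 called members held it in its window. The octamer ATGCAAAT, the classical POU factor motif, occurred in 1.77% of all windows and in none of the 44. The cyclic AMP response element TGACGTCA occurred in 1 of the 44 (1.85% of all windows) and the TEAD motif GGAATG in 5 (14.0% of all). MMP10 and MMP20, each under the minimum, held an AP-1 match and had no read with the non-targeting gRNA. Of these the window of MMP10 is shown as an example, chosen after its values were seen. These are the 100 bases before its start (chr11:102780629-102780728, minus strand), with the AP-1 match, which begins 67 bases before the start, in capitals.
MMP10: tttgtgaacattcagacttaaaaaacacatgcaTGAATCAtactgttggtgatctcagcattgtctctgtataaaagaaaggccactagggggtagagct
A match of these letters is a description and not evidence of binding.

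Of the TIMPs, TIMP1 and TIMP3 were called higher, TIMP2 was not, and TIMP4 had at most 1 read. TIMP1 (ENSG00000102265, chromosome X, 47582313 to 47586789, plus strand), a soluble inhibitor of most MMPs, had normalized counts of 121 with the non-targeting gRNA, 575 with POU2F3 gRNA, and 762 and 740 with the COLCA2 guides. Its log2 ratios were 2.24 (ratio interval 3.92 to 5.78) and 2.62 ± 0.030, with edgeR adjusted p-values of 0.000448 and 0.000139. TIMP3 (ENSG00000100234, chromosome 22, 32801701 to 32863043, plus strand), which binds the matrix and also inhibits ADAM17 and aggrecanases, had 94.5, 724, 1365 and 1536 in the same order. The log2 ratios of TIMP3 were 2.92 (ratio interval 6.21 to 9.52) and 3.92 ± 0.12, with edgeR adjusted p-values of 0.000192 and 3.96e-05. The non-targeting library was lowest for both genes, and for TIMP3 the POU2F3 gRNA library again lay between it and the COLCA2 pair.

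TIMP2 (ENSG00000035862), with normalized counts of 4593, 6448, 5738 and 5843, had log2 ratios of 0.49 (POU2F3 gRNA) and 0.33 ± 0.018 (COLCA2 guides). These are under 2-fold, and the edgeR adjusted p-values were 0.0171 and 0.0351. Per length the 4 TIMPs together had 1389 normalized counts per kb in the non-targeting library, most of it TIMP2, and 2448, 2564 and 2610 in the POU2F3 gRNA and COLCA2 gRNA 1 and 2 libraries, or 1.76, 1.85 and 1.88 times as much. The 6 membrane-type MMPs went from 1747 per kb to 2566, 2337 and 2280, or 1.47, 1.34 and 1.31 times as much.

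Within the membrane-type MMPs the members moved in different directions. MMP14 (ENSG00000157227) had normalized counts of 5253, 8555, 7716 and 7495, with log2 ratios of 0.70 and 0.53 ± 0.030 and edgeR adjusted p-values of 0.0040 and 0.00621. MMP16 had 736 with the non-targeting gRNA and 401, 426 and 423 in the others, with log2 ratios of -0.87 and -0.79 ± 0.0065 and edgeR adjusted p-values of 0.0161 and 0.00924. MMP17, held by a lipid anchor, had 459 against 273, 258 and 276, with log2 ratios of -0.75 and -0.78 ± 0.069 and edgeR adjusted p-values of 0.0577 and 0.0214. MMP16 and MMP17 were thus lower, and MMP14 higher, in every targeted library, each by less than 2-fold. MMP24 had 28.7, 47.8, 65.3 and 62.3, past 2-fold with both COLCA2 guides (log2 ratio 1.13 ± 0.047) and not with POU2F3 gRNA (0.72), and its edgeR adjusted p-values were 0.368 and 0.105. A protein-coding gene on the opposite strand, MMP24OS, shares 18.1% of the annotated exon bases of MMP24, and the use of strand is not given in the sources used here.

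MMP11, stromelysin 3, had summed normalized counts of 524, 410, 359 and 347, with log2 ratios of -0.35 and -0.57 ± 0.034 and edgeR adjusted p-values of 0.275 and 0.0423. Its primary row was listed at 0 with POU2F3 gRNA against 300 in the non-targeting library, while its second row held 410 there against 224. The direction with POU2F3 gRNA therefore depends on summing the rows, and the second row alone, which had the higher mean, gave a log2 ratio of 0.87.

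The members called lower were ADAMTS6 and ADAMTS18, with POU2F3 gRNA only, and both were low and differed between the COLCA2 guides. ADAMTS6 had normalized counts of 64.9 with the non-targeting gRNA, 13.4 in the POU2F3 gRNA library, and 34.2 and 15.3 with COLCA2 gRNA 1 and 2. Its log2 ratios were -2.19 (ratio interval 0.112 to 0.360), -0.90 and -2.02, and its edgeR adjusted p-values were 0.0798 and 0.126. ADAMTS18 had 46.8, 16.8, 33.2 and 21.2, with log2 ratios of -1.43, -0.48 and -1.11 and an edgeR adjusted p of 0.164 with POU2F3 gRNA. Both were lowest with POU2F3 gRNA, and among targeted libraries highest with COLCA2 gRNA 1. Without gRNA 1, these 2 members would be called lower in all targeted libraries. ADAM28, ADAMTS6 and ADAMTS19 were at least 2-fold apart between the 2 COLCA2 guides: ADAM28 was lower with gRNA 1 (11 reads against 30) and ADAMTS6 (33 against 13) and ADAMTS19 (27 against 9) higher. Between the guides 1.05% of all genes were at least 2-fold higher and 1.16% lower with gRNA 1.

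Among the remaining members past the minimum, which no comparison with the non-targeting gRNA called, ADAMTSL3, a matrix-associated ADAMTS-like protein, had normalized counts of 680, 697, 704 and 659. ADAMTS7, which cuts cartilage oligomeric matrix protein, had 410, 609, 469 and 383, highest with POU2F3 gRNA. MMP15 was between 0.47 and 0.59 higher on the log2 scale in the 3 libraries. ADAMTS13, the protease of von Willebrand factor, had log2 ratios of -0.31, -0.35 and -0.90, with all of its reads on a row off the primary assembly.

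Of the 31 members under the minimum, 6 had no read in any library (ADAM6, ADAM7, ADAM21, ADAM30, MMP26 and MMP27) and 25 had at least 1. The highest was ADAMTSL1, with 12 reads with the non-targeting gRNA, 59 with POU2F3 gRNA, and 7 and 9 with the COLCA2 guides. MMP2, gelatinase A, which stromal cells make in quantity, had 7, 35, 5 and 20 reads, so the COLCA2 guides differed by more than 2-fold. ADAMTS12 had 13 reads with POU2F3 gRNA and 1 in each other library. MMP9 had 2 to 4 reads per library. At these depths no difference was detectable for most of these genes.

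The POU2F3 gRNA library was next compared with both COLCA2 libraries, a contrast without the non-targeting gRNA. ADAMTS9 was the 1 member of 41 at least 2-fold lower with POU2F3 gRNA than with both guides, beside 0.924% of all genes, and no member was at least 2-fold higher, beside 0.442%. The log2 ratios of ADAMTS9 to gRNA 1 and 2 were -1.12 and -1.30, against 0.18 between the guides, with an edgeR adjusted p of 0.0373. TIMP3 had -0.92 and -1.08, against 0.17 between the guides, with an edgeR adjusted p of 0.0448. By this test ADAMTS9 and TIMP3 were the 2 members lower, beside 0.234% of all genes, and 0 were higher, beside 0.107%. At an unadjusted p under 0.05 edgeR gave 6 members lower, beside 6.75% of all genes, and 3 higher, beside 6.89%.

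ADAM8 followed with -0.63 and -0.94 and an edgeR adjusted p of 0.281. In the opposite direction ADAMTS17, one of the less studied ADAMTS proteases, had log2 ratios of 0.92 and 1.06 over the COLCA2 guides. Its normalized counts were 165 with the non-targeting gRNA, 187 with POU2F3 gRNA, and 98.5 and 89.4 with the guides, and the edgeR adjusted p was 0.190. ADAMTS2 had 0.77 and 0.56, with an adjusted p of 0.384 by edgeR. The p-values of these members do not show that the libraries were alike.

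**Figure D3:**
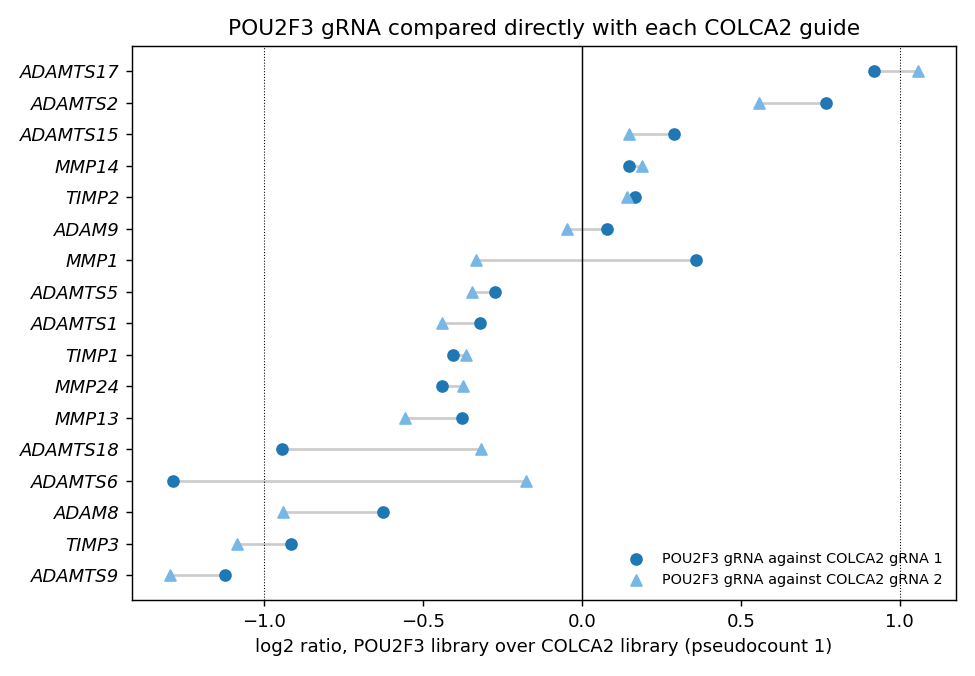
Log2 ratio of the POU2F3 gRNA library to each COLCA2 guide (pseudocount 1) for the 11 members higher in all targeted libraries and for MMP14, MMP24, TIMP2, ADAMTS6, ADAMTS17 and ADAMTS18. Lines join the ratios to the 2 guides; only ADAMTS9 lies past the left dotted 2-fold line with both, and ADAMTS6 and MMP1 have the widest gaps between the guides.

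Genes that act with these proteases were taken from lists drawn up from general knowledge, but with earlier results of these data known. Activators and membrane partners, such as FURIN, the proprotein convertase, the iRhom genes RHBDF1 and RHBDF2, and the tetraspanins that carry ADAM10, had no call. None of the 15 that passed the minimum was called in any comparison, where 4.89% of all genes were higher and 1.5% lower in all 3 libraries, so a count of 0 is near the background. They had a median log2 ratio of 0.062 with POU2F3 gRNA and 0.059 and 0.10 with the COLCA2 guides. The largest changes shared by the 3 libraries were those of FRMD8, the iRhom-binding protein (log2 ratios 0.69, 0.74 and 0.69), TSPAN33 (-0.67, -0.42 and -0.60), RHBDF2 (0.86, 0.41 and 0.51) and TSPAN17 (0.31, 0.57 and 0.53). HPN was under the minimum, with 18 reads in the non-targeting library and 5, 1 and 0 in the others.

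Of the other inhibitors and clearance receptors 2 of 8 were higher in all 3 libraries and none lower, beside 4.89% and 1.5% of all genes. A2M, the protease trap alpha-2-macroglobulin, had normalized counts of 77.3 with the non-targeting gRNA, 760 with POU2F3 gRNA, and 668 and 667 with the COLCA2 guides. TFPI2, a Kunitz-type inhibitor, had 36.3, 153, 149 and 218. RECK, a membrane-anchored MMP inhibitor, had 295, 295, 282 and 307, level across the 4 libraries. SPOCK2 had log2 ratios of 0.84, 1.26 and 0.86, and LRP1, the receptor that clears protease complexes, had 0.63, 0.21 and 0.10. SPOCK3 was the list's gene at least 2-fold higher with POU2F3 gRNA than with both guides, with 105 reads against 38 and 17. The median of the list was 0.74, 0.54 and 0.31 in the 3 libraries.

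Among matrix substrates 2 of 14 were higher and 1 lower in all 3 libraries, beside 4.89% and 1.5% of all genes, and the medians were 0.098, 0.042 and 0.0052. Thrombospondin 1 (THBS1) went from a normalized count of 2026 to 20029, 20158 and 22791, and fibronectin (FN1) from 9408 to 20729, 22440 and 24711. VCAN encodes versican, which ADAMTS1, ADAMTS5 and ADAMTS9 cut. It had 4444 in the non-targeting library and 2533, 1849 and 1732 in the others, with log2 ratios of -0.81, -1.27 and -1.36, past 2-fold with both COLCA2 guides. Aggrecan, brevican and neurocan (ACAN, BCAN and NCAN) were under the minimum, with 5 reads each in the non-targeting library. VWF, the von Willebrand factor cut by ADAMTS13, was the gene lower in all 3, with 46 reads there and 17 to 19 in the others.

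Surface proteins that ADAMs are known to shed were the list with most calls, 8 of 25 higher in all 3 libraries and none lower, beside 4.89% and 1.5% of all genes. They were AXL, CD44, L1CAM, ICAM1, TNF, TNFRSF1A, CDH1 and CDH2, CDH1 being one of the epithelial markers as well. AXL and TNF, at 9.55 and 18.1 with the non-targeting gRNA, passed the minimum only through the targeted libraries where they were high. AXL, a receptor kinase, had normalized counts of 9.55, 110, 192 and 246, CD44, the hyaluronan receptor, had 365, 2885, 3327 and 3509, L1CAM had 76.4, 441, 645 and 653, and ICAM1 had 68.8, 303, 376 and 461. In each the non-targeting library was lowest. The list's median was 0.67 with POU2F3 gRNA and 0.81 and 1.04 with the COLCA2 guides. The change of CD44 was among earlier results of these data, so the count is not independent evidence.

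Among other metzincins, the wider enzyme family, none of the 6 past the minimum was called in all 3 libraries. MMP23B, whose symbol the rule leaves out, had 6 reads with the non-targeting gRNA, 40 with POU2F3 gRNA, and 54 and 10 with the COLCA2 guides, so the guides differed. PAPPA had 20, 34, 84 and 35. The procollagen C-proteinases BMP1 and TLL1 and their relative TLL2 had log2 ratios from 0.23 to 0.87. ADAMDEC1 had no read in any library.

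**Figure D4:**
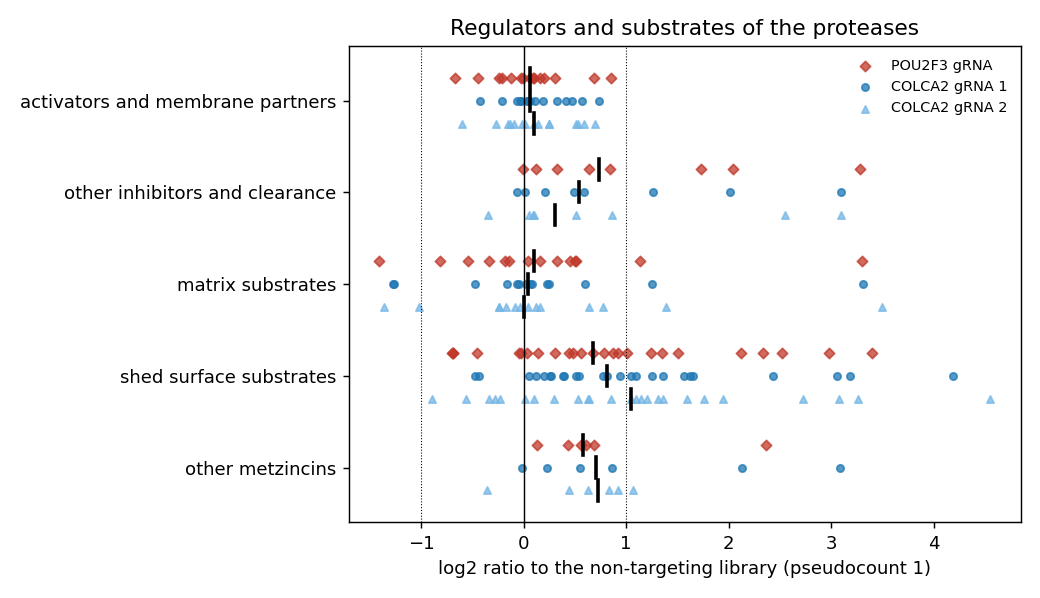
Log2 ratio to the non-targeting library (pseudocount 1) of list genes past the expression minimum, 1 point per gene in each targeted library, with black bars at the list medians. Activators and membrane partners lie between the dotted 2-fold lines, while points of the shed surface substrates reach past 4, where AXL lies. AXL passed the minimum only through the targeted libraries.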

How the data were processed

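Poly(A) RNA of 4 libraries was measured. Values are deposited as a linear signal, the normalized count of each gene, per the file headers. Per the submitters' processing notes, Salmon, DESeq2 and hg38 were used, no versions or roles stated. Annotation and use of the strand are not given in the sources used here. In each library 100% of values were whole multiples (tolerance 1e-06 reads) of 1 step, which gave back the reads; whole reads may be rounded estimates.

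The 38145 rows were summed by symbol, 8 members having more than 1 row. Genes with a mean of at least 20 were kept. Log2 ratios used a pseudocount of 1 and calls a 2-fold threshold without a test. As an alternative, edgeR 4.0.16 (R 4.3.3) ran its quasi-likelihood test with TMM factors, 3 groups and Benjamini-Hochberg adjustment at 0.05. Other alternatives were TMM and equal-total scaling, pseudocounts of 0.1 and 10, no minimum or 100, values per row, each guide left out and, chosen after seeing the data, a minimum of 20 in the non-targeting library as well. Intervals are 95%. Folds over 0 reads are set against 3 reads and leave out the counting error of the targeted library. Positions, transcript lengths and coding sequences come from GENCODE 29 (70 members by identifier, 2 by symbol), promoters from RefSeq.

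Members, lists and classes were chosen with earlier results of these data known. Named are members called against the non-targeting library or between targets, TIMPs, the member highest per length in each class, and up to 4 list genes with the largest change shared by the 3 targeted libraries. Other names were chosen after their values were seen.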

Additional observations from a re-analysis of the deposited data

Results flagged for a closer look

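Among the members, 2 differed between the POU2F3 gRNA library and the COLCA2 libraries by edgeR's test of that difference, a contrast without the non-targeting gRNA. ADAMTS9 had an edgeR log2 difference of -1.20 (POU2F3 minus COLCA2; adjusted p = 0.0373), being lower with POU2F3 gRNA than with both guides. TIMP3 had an edgeR log2 difference of -0.99 (adjusted p = 0.0448), likewise lower than with both guides. The POU2F3 group held 1 library, so these differences compare libraries. No group had the 4 samples that a check for outlying samples needs.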

How the results depend on the processing

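No paired analysis was possible because 2 of the 3 groups held 1 library each. Of members called at 2-fold against the non-targeting gRNA, no summed log2 ratio, nor that of the row with the highest mean, changed sign under the alternatives run. The second ADAM9 row did (listed at 0 with POU2F3 gRNA). The row with the highest mean turned MMP11 with POU2F3 gRNA from -0.35 to 0.87, and the near-0 COLCA2 ratios of ADAM15, ADAMTS7 and ADAMTSL3 changed sign with equal totals, ADAMTS7 and ADAMTSL3 also without gRNA 1. Of the 11 members called in all 3 targeted libraries, all 11 kept the call under both scalings, a pseudocount of 0.1, no minimum, the row with the highest mean and without either COLCA2 guide. A pseudocount of 10 and edgeR's test each lost MMP13, and a minimum of 100 lost ADAMTS2, MMP1 and MMP13, by construction. Asking for 20 in the non-targeting library as well, an alternative chosen after seeing the data, lost ADAM8, ADAMTS5, MMP1 and MMP13 by construction, leaving 7 members higher with POU2F3 gRNA and in all 3 libraries, and 90 genes lower between targets. Neither scaling shifted the all-gene median by more than 0.1 (log2; with COLCA2 gRNA it was -0.077 under equal totals) or moved any count by over 1.5 times. The log2 ratio of MMP1 with the COLCA2 guides rested on the pseudocount (8.06 with 0.1, 1.88 with 10).

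Counts that moved by over 1.5 times follow, higher before lower; the main counts for all genes were 1005 and 455 for POU2F3 gRNA, 865 and 302 for COLCA2 gRNA, 66 and 138 between targets, 157 and 174 between guides and 731 and 224 in all 3 libraries. Without a minimum, POU2F3 gRNA gave 2551 and 1639 genes (17 and 4 members), COLCA2 gRNA 1857 and 1028 (1 member lower), POU2F3 against COLCA2 gRNA 812 and 791 (4 and 4 members), the guides against each other 2420 and 2248 (6 and 7 members), and all 3 libraries 1272 and 689. With a minimum of 100, POU2F3 gRNA gave 631 and 233 genes (0 members lower), COLCA2 gRNA 177 lower, the targets 11 and 62, the guides 31 and 23 (0 and 0 members), and all 3 libraries 135 lower. A pseudocount of 10 gave 37 genes higher between targets, and 100 and 105 between guides (0 members higher). Counting each row gave 5 lower with POU2F3 gRNA (rows of ADAMTS6, ADAMTS18, ADAM32, MMP11 and ADAM9), 1 with COLCA2 gRNA, 1 higher and 3 lower between targets and 1 lower in all 3 libraries (ADAM32). The edgeR test gave 1 member lower with POU2F3 gRNA, 1709 and 1122 genes with COLCA2 gRNA (3 members lower), and 16 and 35 between targets (2 members lower). With 1 guide left out, COLCA2 gRNA gave 477 to 544 genes lower (1 to 3 members), the targets 205 to 229 genes higher and 231 to 268 lower (1 to 2 members higher, 2 lower), and all 3 libraries 0 to 2 members lower. Without gRNA 1 the 3 members lower with COLCA2 gRNA were ADAMTS6, ADAMTS18 and ADAMTS19, and without gRNA 2 the 1 was ADAM28. The cause was not tested, apart from the number of genes or libraries each setting admits. Counting error limits MMP1, MMP10, MMP13 and ADAMTS5, whose non-targeting reads numbered 0 to 11.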
